A study of Mus musculus with 8 samples.

Results

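The genes described here are 41 mouse genes whose products build and control the mitotic spindle, the kinetochore and the cleavage of the dividing cell. They were taken by symbol from a named list, not by a threshold on expression. All 41 were found in the deposited table of 55450 genes, each in 1 row, and all 41 passed the expression filter that left 21451 genes for testing. The lowest count of any member in any library was 86.

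In mitosis, microtubules of the spindle attach to kinetochores, protein assemblies that form on centromeric chromatin marked by the histone variant CENP-A. Aurora and Polo-like kinases build the spindle and correct faulty attachments, the spindle checkpoint holds back chromosome separation until every kinetochore is attached, and the central spindle then places the contractile ring for cytokinesis. Most of these genes are transcribed in G2 and M phase, so that their transcripts are commonly used to mark dividing cells, and in the embryonic thymus epithelial cells divide as the organ grows.

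RNA-sequencing was analyzed for TECs (thymic epithelial cells) that were sorted as CD45-EpCAM+ cells from the thymus of E17 mouse embryos, where 17 is the embryonic day. Every group carried the same reporter alleles, *Ccl21a*-tdTomato, a knock-in at the chemokine gene *Ccl21a*, and RANK-Venus, a reporter of *Tnfrsf11a*, the gene for the TNF-family receptor RANK that drives maturation of medullary TECs. The groups were CCL21+RANK- TECs (tdTomato+Venus-, 3 libraries), CCL21-RANK+ TECs (tdTomato-Venus+, 3 libraries), and CCL21-RANK- TECs (tdTomato-Venus-, 2 libraries). The study's reporting checklist describes its replicates as biological. The labels only number the libraries within a group and do not say from which or how many embryos each came. The p-values therefore set group differences against the spread between these libraries, which may not be the spread between embryos. The libraries held 59677315, 46003128, and 55116911 counts in CCL21+RANK-, 57286762, 50146730, and 42751839 counts in CCL21-RANK+, and 67451440 and 71625282 counts in CCL21-RANK- TECs. Values of a group are given throughout in the order of replicates 1, 2, and 3.

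Levels are given as RPKM, the counts of a gene per kilobase of its exons and per 1000000 counts of the library. The length is that of all annotated exons of a gene merged. It can exceed the length of the transcript that is made, so that levels of different genes compare only roughly. Gene coordinates are those of GENCODE M21 on the build GRCm38. Fold changes are on the log2 scale from the quasi-likelihood fit of edgeR to all 8 libraries, with SE, and p-values were adjusted by Benjamini-Hochberg over the 21451 genes tested. A gene was called when its adjusted p-value was under 0.05, its fold change was over 1.5, and its mean RPKM in the higher group was over 1. The SE was computed as the absolute log2 fold change over the square root of the F statistic of the test. Both SE and p-value carry the spread among libraries.

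The reporter genes and the markers of TECs were first set against the labels. *Ccl21a* was at 561, 346, and 305 RPKM in CCL21+RANK-, 152, 95.9, and 78.2 RPKM in CCL21-RANK+, and 6.88 and 8.87 RPKM in CCL21-RANK- TECs. *Tnfrsf11a* was at 8.78, 9.44, and 10.3 RPKM in CCL21+RANK-, 111, 93.1, and 107 RPKM in CCL21-RANK+, and 2.62 and 2.26 RPKM in CCL21-RANK- TECs. Each was highest in the group sorted for it, without overlap, but *Ccl21a* was not absent from CCL21-RANK+ TECs. *Aire*, which drives the display of self-antigens in mature medullary TECs, was at 0.802, 0.807, and 0.631 RPKM in CCL21+RANK-, 131, 94.1, and 114 RPKM in CCL21-RANK+, and 0.810 and 0.120 RPKM in CCL21-RANK- TECs. All 9 listed TEC genes, among them *Foxn1*, *Epcam*, *Krt8*, and *Krt5*, were detected in every library, and 7 of them were lower and 1 (*Epcam*) was higher in CCL21-RANK+ TECs compared with CCL21+RANK- TECs.

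Transcripts used as markers of other cell types were present and were not even across libraries. Whether they came from other cells or from the TECs themselves was not tested. For the calls below, 15.4% of all tested genes were called higher and 15.4% lower in CCL21-RANK+ TECs compared with CCL21+RANK- TECs. The 6 myeloid and dendritic markers, led by *Lyz2*, were at 0.993, 0.249, and 0.343 summed RPKM in CCL21+RANK-, 61.1, 18.9, and 21.4 summed RPKM in CCL21-RANK+, and 0.448 and 0.370 summed RPKM in CCL21-RANK- TECs, and 4 of 6 were called higher in CCL21-RANK+ TECs compared with CCL21+RANK- TECs. The 7 mesenchymal markers, led by *Col1a1*, were at 2.80, 2.91, and 1.85 summed RPKM in CCL21+RANK-, 52.7, 27.2, and 33.0 summed RPKM in CCL21-RANK+, and 4.03 and 1.91 summed RPKM in CCL21-RANK- TECs, with 5 of 7 called higher in the same comparison. *Pdgfra*, a mesenchymal receptor, was at 0.262, 0.171, and 0.154 RPKM in CCL21+RANK-, 0.122, 0.0517, and 0.0303 RPKM in CCL21-RANK+, and 0.0385 and 0.0376 RPKM in CCL21-RANK- TECs, with each CCL21-RANK+ library below each CCL21+RANK- library, and was not called. Replicate 1 of CCL21-RANK+ had the highest sum of both lists.

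The 14 thymocyte markers, led by *Rag1*, were at 13.4, 5.61, and 7.51 summed RPKM in CCL21+RANK-, 25.01, 10.7, and 20.1 summed RPKM in CCL21-RANK+, and 4.16 and 3.60 summed RPKM in CCL21-RANK- TECs. In CCL21-RANK+ TECs compared with CCL21+RANK- TECs, 2 of 14 (*Lck* and *Cd4*, 14.3%) were called higher, near the 15.4% of all tested genes. Compared with CCL21-RANK- TECs, 5 of 14 (35.7%) were called higher, beside 14.4% of all tested genes. The defining marker *Ptprc*, which encodes the CD45 used to gate leukocytes out, was at 0.193, 0.112, and 0.0684 RPKM in CCL21+RANK-, 0.576, 0.177, and 0.422 RPKM in CCL21-RANK+, and 0.0518 and 0.0351 RPKM in CCL21-RANK- TECs. The 5 B-lineage markers, led by *Cd79b*, were at 1.21, 0.741, and 1.17 summed RPKM in CCL21+RANK-, 12.4, 5.89, and 7.26 summed RPKM in CCL21-RANK+, and 0.381 and 0.503 summed RPKM in CCL21-RANK- TECs, with 2 of 5 called higher. *Cd79a* was at 0 in all 3 CCL21+RANK- libraries. The 4 endothelial markers, led by *Tek*, were at 0.345, 0.450, and 0.312 summed RPKM in CCL21+RANK-, 4.04, 2.196, and 1.90 summed RPKM in CCL21-RANK+, and 0.174 and 0.125 summed RPKM in CCL21-RANK- TECs, with 1 of 4 called higher.

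The 5 erythroid markers, led by *Hbb-bs*, were at 6.61, 164, and 59.4 summed RPKM in CCL21+RANK-, 184, 285, and 300.02 summed RPKM in CCL21-RANK+, and 453 and 57.1 summed RPKM in CCL21-RANK- TECs. Their highest and lowest sums both lay outside CCL21-RANK+ TECs, and 1 of 5 (*Alas2*) was called higher there. The 4 parathyroid markers, led by *Chga*, were at 7122, 1749.8, and 1955 summed RPKM in CCL21+RANK-, 24.9, 11.1, and 12.0 summed RPKM in CCL21-RANK+, and 23.8 and 21.6 summed RPKM in CCL21-RANK- TECs, with 4 of 4 lower in CCL21-RANK+ TECs compared with CCL21+RANK- TECs. Replicate 1 of CCL21+RANK- stood apart with the highest sum. The part of these transcripts in the levels of the mitotic genes was not tested.

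Nearly all mitotic genes were higher in CCL21-RANK+ TECs compared with CCL21+RANK- TECs. Of the 41 members, 38 were called higher and 0 lower in edgeR, against 15.4% of all tested genes called higher and 15.4% called lower. No member had an unadjusted p-value under 0.05 in the lower direction, and the Wald test of DESeq2 likewise called 38 higher and 0 lower. Without the first library of both groups, a choice made after seeing the data, 38 were called higher, and the libraries left still differed in the markers of other cell types given above. For 39 members the lowest CCL21-RANK+ library exceeded the highest CCL21+RANK- library, which held for 36.9% of tested genes. The median log2 fold change of the members was 1.67 (quartiles 1.36 and 1.85), beside 0.11 for all tested genes. The members not called were *Racgap1*, *Spc25*, and *Cenpk*, and *Cenpk* missed only through a mean RPKM below 1 in the higher group (log2 fold change 1.06 ± 0.30, adjusted p = 0.0137). In these bulk samples fewer or more dividing cells and less or more RNA per dividing cell cannot be told apart.

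Summed over the 41 members, the level was at 117, 128, and 157 summed RPKM in CCL21+RANK-, 316, 479.9, and 445 summed RPKM in CCL21-RANK+, and 288 and 361 summed RPKM in CCL21-RANK- TECs. The 3 CCL21+RANK- libraries lay below all others, and replicate 1 of CCL21-RANK+ lay between the CCL21-RANK- libraries. The mean sum of CCL21-RANK+ TECs was 3.09-fold that of CCL21+RANK- and 1.28-fold that of CCL21-RANK- TECs. The members together took 0.0592% to 0.0759% of all counts for CCL21+RANK-, 0.159% to 0.235% for CCL21-RANK+, and 0.14% to 0.172% for CCL21-RANK- TECs. In mean RPKM, 37 of the 41 members stood in the order CCL21-RANK+ above CCL21-RANK- above CCL21+RANK- TECs, and 40 were lowest in CCL21+RANK- TECs.

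**Figure D1:**
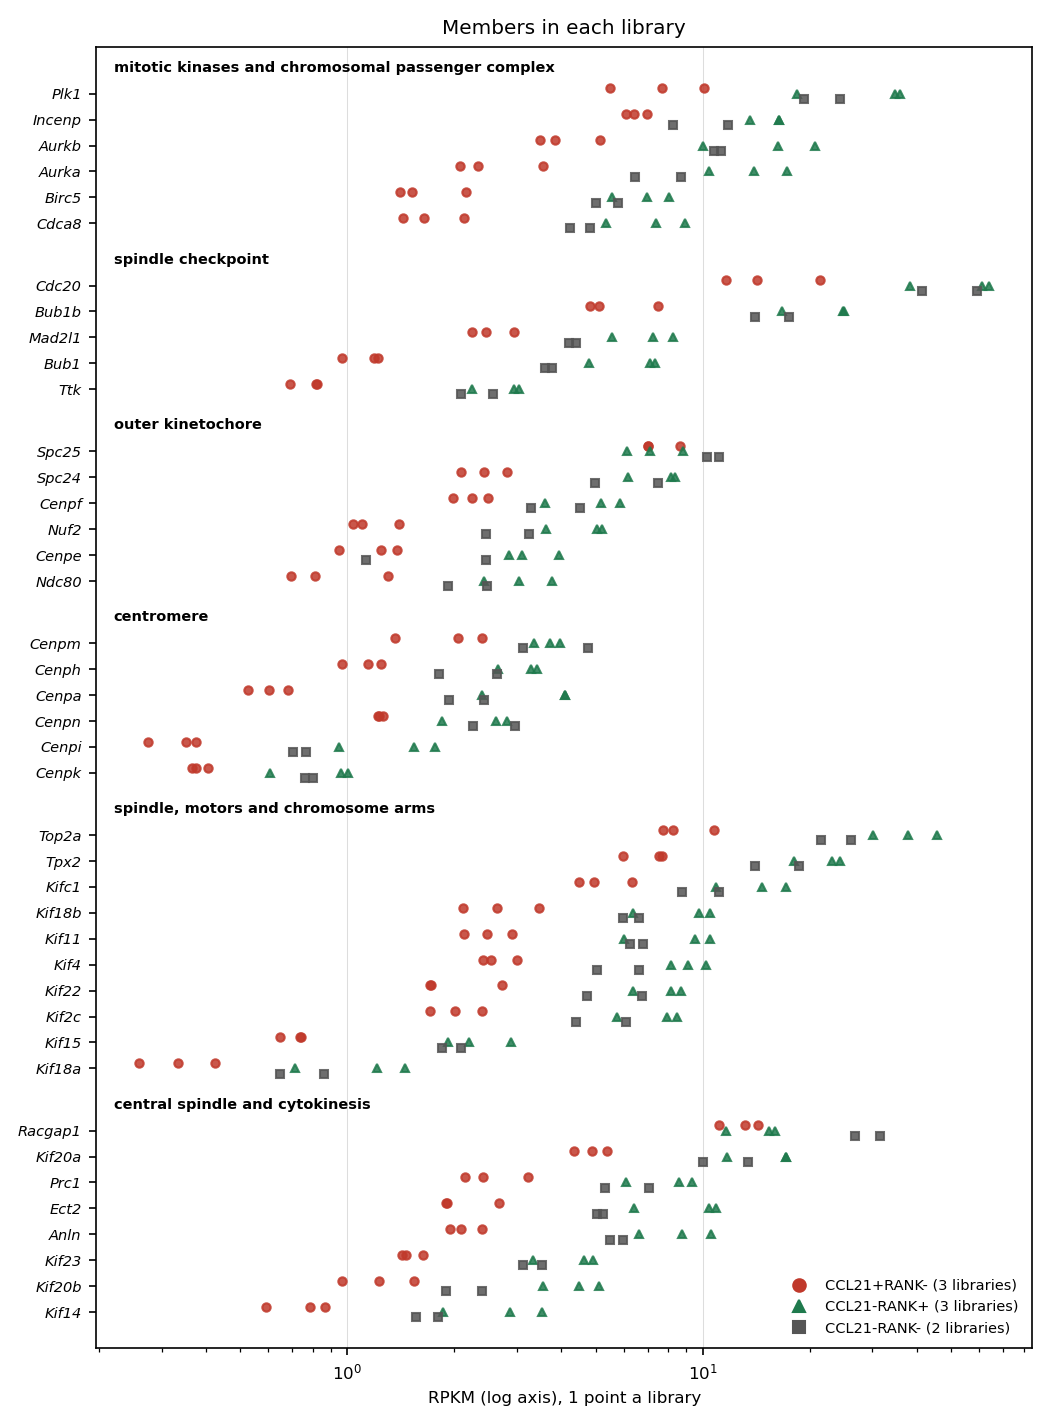
RPKM (log axis) of the 41 members in each of the 8 libraries, by role, with 1 point a library and the groups set apart by color and shape. CCL21+RANK- libraries lie to the left of the CCL21-RANK+ libraries for 39 members, and *Spc25* and *Racgap1* are the members for which those groups overlap.

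To show the sequence that lies before the start of such genes, promoters were taken from RefSeq (GRCm38.p6), where 36 of the 41 members matched. *Aurkb*, *Incenp*, *Spc24*, *Tpx2*, and *Kif20a* did not match. In the 250 bases before the transcription start, the letters TTTGAA or TTCGAA (the cell cycle genes homology region, CHR) and CCAAT (the box bound by NF-Y) were searched on both strands, where TTCGAA reads the same on either strand, and matches that shared bases were each counted. A CHR match was found in 11 of 36 first-listed member promoters (30.6%), beside 17.4% of 27025 promoters of all genes, and a CCAAT match in 25 (69.4%), beside 34.5%. Both were found in 9 members (25%), beside 6.21% of all. At least 2 CCAAT boxes were found in 15 members (41.7%), beside 10.5%. In other lists a CCAAT match was found in 67.7% of 31 DNA replication genes, 61.1% of 18 constitutive spindle and microtubule genes, and 57.4% of 61 other mitotic genes, and a CHR match in 19.4%, 11.1%, and 42.6% of them. Over all 40 promoters listed for the members, 7 members had a CHR match within 30 bases of a start, at 18 bases for *Cdc20*, 19 for *Kif11* and *Kif15*, 23 for *Top2a*, 17 for *Kif22*, 9 for *Cenpn*, and 30 for *Prc1*. Matches this near a start were not counted over all genes, so that no background share stands beside the 7 members. A match is a description of letters and not a proven site. The promoters of the 4 most abundant members with a CHR match are shown 5′ to 3′ on the strand of the gene, ending at the base before the start, with CHR and CCAAT matches of either strand in capitals (chr4:118437344-118437593, minus strand, for *Cdc20*, chr11:99024190-99024439, minus strand, for *Top2a*, chr2:118597961-118598210, plus strand, for *Bub1b*, and chr19:37376132-37376381, plus strand, for *Kif11*).
Cdc20: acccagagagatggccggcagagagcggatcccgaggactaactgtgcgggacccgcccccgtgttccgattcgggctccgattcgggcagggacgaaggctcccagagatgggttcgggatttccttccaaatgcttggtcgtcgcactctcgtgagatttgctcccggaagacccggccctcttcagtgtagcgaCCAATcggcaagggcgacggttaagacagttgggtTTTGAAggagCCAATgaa
Top2a: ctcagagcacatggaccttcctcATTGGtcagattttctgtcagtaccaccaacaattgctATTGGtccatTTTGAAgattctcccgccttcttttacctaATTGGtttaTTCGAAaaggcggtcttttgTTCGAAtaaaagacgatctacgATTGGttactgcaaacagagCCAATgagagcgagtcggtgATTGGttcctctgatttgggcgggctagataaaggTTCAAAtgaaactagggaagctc
Bub1b: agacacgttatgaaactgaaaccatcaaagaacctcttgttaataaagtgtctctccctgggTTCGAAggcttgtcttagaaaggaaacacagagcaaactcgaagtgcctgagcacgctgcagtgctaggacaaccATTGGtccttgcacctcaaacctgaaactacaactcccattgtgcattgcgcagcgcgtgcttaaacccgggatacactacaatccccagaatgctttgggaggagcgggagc
Kif11: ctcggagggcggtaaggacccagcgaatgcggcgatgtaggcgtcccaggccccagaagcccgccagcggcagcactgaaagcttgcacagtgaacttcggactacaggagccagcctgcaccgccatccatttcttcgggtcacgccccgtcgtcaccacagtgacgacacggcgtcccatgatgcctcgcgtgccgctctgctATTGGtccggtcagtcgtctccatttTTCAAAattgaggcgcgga
*Top2a* had 4 CHR matches and 6 CCAAT boxes, *Cdc20* had 1 and 2, and *Bub1b* and *Kif11* had 1 of each. Of the members not called, *Racgap1* had 1 CCAAT box and 0 CHR matches, *Spc25* had 2 and 0, and *Cenpk* had 1 or 2 and 0 in each of its 3 listed promoters. Members with neither kind of match, such as *Ndc80*, *Nuf2*, and *Anln*, were among those called higher. Only bases before the start were searched, and a link between matches and fold changes was not tested.

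The mitotic kinases and the chromosomal passenger complex had 6 of 6 members higher in CCL21-RANK+ TECs compared with CCL21+RANK- TECs, with a median log2 fold change of 1.88. *Plk1*, a kinase of spindle poles, kinetochores and mitotic entry (chromosome 7, 122159439 to 122169873, plus strand), was at 5.47, 7.67, and 10.1 RPKM in CCL21+RANK-, 18.4, 35.9, and 34.9 RPKM in CCL21-RANK+, and 19.2 and 24.4 RPKM in CCL21-RANK- TECs. *Aurka*, the Aurora kinase of spindle poles (chromosome 2, 172356190 to 172370535, minus strand), was at 2.08, 2.34, and 3.55 RPKM in CCL21+RANK-, 10.4, 17.3, and 14.0 RPKM in CCL21-RANK+, and 6.46 and 8.70 RPKM in CCL21-RANK- TECs. Both had all 3 CCL21+RANK- libraries lowest, and the CCL21-RANK- libraries lay below those of CCL21-RANK+ for *Aurka* but between them for *Plk1*. *Aurka* had the larger log2 fold change (2.29 ± 0.25, adjusted p = 4.39e-05), beside 1.85 ± 0.29 (adjusted p = 0.0005) for *Plk1*.

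In the chromosomal passenger complex, which moves from centromeres to the central spindle, the kinase *Aurkb* was at 3.85, 3.48, and 5.14 RPKM in CCL21+RANK-, 10.01, 20.7, and 16.3 RPKM in CCL21-RANK+, and 10.8 and 11.2 RPKM in CCL21-RANK- TECs. Its scaffold *Incenp* was at 6.07, 6.42, and 6.96 RPKM in CCL21+RANK-, 13.6, 16.3, and 16.4 RPKM in CCL21-RANK+, and 8.25 and 11.8 RPKM in CCL21-RANK- TECs. *Incenp* had the smallest log2 fold change of the 6 genes (1.14 ± 0.14), and its CCL21-RANK- libraries lay below all of CCL21-RANK+, which those of *Aurkb* did not. The targeting subunit *Birc5* (survivin) was at 1.52, 1.41, and 2.15 RPKM in CCL21+RANK-, 5.56, 6.95, and 8.04 RPKM in CCL21-RANK+, and 5.01 and 5.79 RPKM in CCL21-RANK- TECs. Its partner *Cdca8* (borealin) was at 1.64, 1.44, and 2.13 RPKM in CCL21+RANK-, 5.34, 8.92, and 7.41 RPKM in CCL21-RANK+, and 4.22 and 4.82 RPKM in CCL21-RANK- TECs. Their log2 fold changes were 1.91 ± 0.19 and 1.96 ± 0.21, and replicate 1 of CCL21-RANK+ was lowest in its group for all 4 genes of the complex. A gene on the opposite strand, *9930104L06Rik*, overlaps *Cdca8* with up to 819 counts, and whether counting used strand is not given in the sources used here.

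Of the spindle checkpoint, 5 of 5 members were higher in CCL21-RANK+ TECs compared with CCL21+RANK- TECs, with a median log2 fold change of 1.70. *Cdc20*, which activates the anaphase-promoting complex once the checkpoint is satisfied (chromosome 4, 118432901 to 118437352, minus strand), was at 11.6, 14.2, and 21.3 RPKM in CCL21+RANK-, 38.3, 64.1, and 61.0 RPKM in CCL21-RANK+, and 41.4 and 59.1 RPKM in CCL21-RANK- TECs. It was the most abundant member per length in every library, followed in the CCL21+RANK- libraries by *Racgap1*. Its overlapping opposite-strand neighbor *Elovl1* had up to 1171 counts. *Bub1b* (BubR1), a part of the inhibitor of that complex, was at 5.12, 4.83, and 7.50 RPKM in CCL21+RANK-, 16.7, 24.9, and 24.8 RPKM in CCL21-RANK+, and 14.1 and 17.5 RPKM in CCL21-RANK- TECs. *Mad2l1*, the MAD2 protein of the same inhibitor, was at 2.46, 2.25, and 2.95 RPKM in CCL21+RANK-, 5.55, 8.26, and 7.23 RPKM in CCL21-RANK+, and 4.20 and 4.39 RPKM in CCL21-RANK- TECs. The CCL21-RANK- libraries overlapped the CCL21-RANK+ libraries for *Cdc20* and *Bub1b* but were below them for *Mad2l1*.

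*Bub1*, a checkpoint kinase that marks centromeric histone H2A (chromosome 2, 127801122 to 127831865, minus strand), was at 1.19, 0.964, and 1.22 RPKM in CCL21+RANK-, 4.78, 7.11, and 7.34 RPKM in CCL21-RANK+, and 3.76 and 3.60 RPKM in CCL21-RANK- TECs. *Ttk* (MPS1), the kinase that starts checkpoint signaling, was at 0.818, 0.822, and 0.690 RPKM in CCL21+RANK-, 2.25, 3.03, and 2.94 RPKM in CCL21-RANK+, and 2.09 and 2.57 RPKM in CCL21-RANK- TECs. *Bub1* had the second largest log2 fold change of all members (2.41 ± 0.21, adjusted p = 1.04e-05), with the 3 groups fully apart, whereas replicate 1 of CCL21-RANK+ lay between the CCL21-RANK- libraries for *Ttk* (1.70 ± 0.21).

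The outer kinetochore, which binds microtubule ends, had 5 of 6 members called higher, with a median log2 fold change of 1.43. The rod-shaped NDC80 complex has the subunits *Ndc80*, *Nuf2*, *Spc24*, and *Spc25*. *Ndc80* (chromosome 17, 71496100 to 71526857, minus strand) was at 0.694, 0.810, and 1.30 RPKM in CCL21+RANK-, 2.43, 3.77, and 3.05 RPKM in CCL21-RANK+, and 1.92 and 2.47 RPKM in CCL21-RANK- TECs. *Nuf2* (chromosome 1, 169497934 to 169531464, minus strand) was at 1.04, 1.10, and 1.40 RPKM in CCL21+RANK-, 3.63, 5.21, and 5.04 RPKM in CCL21-RANK+, and 2.45 and 3.25 RPKM in CCL21-RANK- TECs. *Spc24* (chromosome 9, 21755442 to 21760303, minus strand) was at 2.09, 2.42, and 2.81 RPKM in CCL21+RANK-, 6.17, 8.34, and 8.12 RPKM in CCL21-RANK+, and 4.96 and 7.48 RPKM in CCL21-RANK- TECs. These subunits were lowest in the CCL21+RANK- libraries, with log2 fold changes of 1.63 ± 0.25, 1.87 ± 0.19, and 1.52 ± 0.20.

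*Spc25* (chromosome 2, 69193895 to 69206194, minus strand) departed from its partners. It was at 7.00, 7.02, and 8.64 RPKM in CCL21+RANK-, 6.13, 8.78, and 7.10 RPKM in CCL21-RANK+, and 11.1 and 10.3 RPKM in CCL21-RANK- TECs, with overlapping CCL21+RANK- and CCL21-RANK+ libraries and both CCL21-RANK- libraries above all others. Its log2 fold change of -0.15 ± 0.17 between CCL21-RANK+ and CCL21+RANK- TECs did not pass the test (adjusted p = 0.482) and was 0.0052 without replicate 1 of CCL21-RANK+. The ratio of *Spc25* to *Ndc80* RPKM was 10.1, 8.67, and 6.64 for CCL21+RANK-, 2.52, 2.33, and 2.33 for CCL21-RANK+, and 5.78 and 4.16 for CCL21-RANK- TECs. All 3 groups were apart in this ratio (exact permutation test, two-sided, p = 0.1 for CCL21-RANK+ against CCL21+RANK-, the smallest that 3 against 3 libraries allow, and p = 0.2 for CCL21-RANK+ against CCL21-RANK-, the smallest for 3 against 2). The ratios of *Spc24* and of *Nuf2* to *Ndc80* overlapped between CCL21+RANK- and CCL21-RANK+ TECs, with means of 2.72 and 2.47 for *Spc24* (exact permutation p = 0.6) and of 1.31 and 1.51 for *Nuf2* (exact permutation p = 0.3).

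*Cenpf*, a large protein of the nuclear matrix and outer kinetochore, was at 2.25, 2.49, and 1.99 RPKM in CCL21+RANK-, 5.17, 5.86, and 3.59 RPKM in CCL21-RANK+, and 3.28 and 4.51 RPKM in CCL21-RANK- TECs. *Cenpe*, the kinesin that carries chromosomes to the metaphase plate, was at 1.38, 1.25, and 0.949 RPKM in CCL21+RANK-, 3.94, 2.85, and 3.10 RPKM in CCL21-RANK+, and 1.13 and 2.46 RPKM in CCL21-RANK- TECs. Their log2 fold changes (0.99 ± 0.20 and 1.33 ± 0.26) were below that of *Ndc80*, and they were the members for which replicate 1 of CCL21-RANK+ was not lowest in its group. Replicate 1 of CCL21-RANK- lay within the CCL21+RANK- values for *Cenpe*.

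The centromere genes had 5 of 6 members called higher and the lowest median log2 fold change of the roles, 1.21. *Cenpa*, the histone H3 variant that marks the centromere (chromosome 5, 30666777 to 30674830, plus strand), was at 0.526, 0.601, and 0.681 RPKM in CCL21+RANK-, 2.39, 4.10, and 4.09 RPKM in CCL21-RANK+, and 1.93 and 2.42 RPKM in CCL21-RANK- TECs. It had the largest log2 fold change of all members (2.44 ± 0.25, adjusted p = 3.28e-05). The other members belong to the constitutive centromere-associated network, which stays on chromatin through the cell cycle. *Cenpm* was at 2.39, 1.36, and 2.04 RPKM in CCL21+RANK-, 3.35, 3.72, and 3.96 RPKM in CCL21-RANK+, and 3.12 and 4.74 RPKM in CCL21-RANK- TECs. *Cenph* was at 1.15, 1.24, and 0.966 RPKM in CCL21+RANK-, 2.65, 3.41, and 3.29 RPKM in CCL21-RANK+, and 1.81 and 2.63 RPKM in CCL21-RANK- TECs. *Cenpn*, which reads CENP-A nucleosomes, was at 1.22, 1.26, and 1.23 RPKM in CCL21+RANK-, 1.85, 2.81, and 2.61 RPKM in CCL21-RANK+, and 2.25 and 2.95 RPKM in CCL21-RANK- TECs. CCL21+RANK- libraries were lowest for each of these genes, and *Cenpm* and *Cenpn* had the smallest log2 fold changes among members called (0.82 ± 0.26 and 0.86 ± 0.24).

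*Cenpi* was at 0.375, 0.352, and 0.275 RPKM in CCL21+RANK-, 0.949, 1.77, and 1.54 RPKM in CCL21-RANK+, and 0.765 and 0.703 RPKM in CCL21-RANK- TECs. *Cenpk* was at 0.365, 0.374, and 0.406 RPKM in CCL21+RANK-, 0.607, 1.00, and 0.957 RPKM in CCL21-RANK+, and 0.762 and 0.798 RPKM in CCL21-RANK- TECs. These were among the least abundant members per length, and *Cenpi* nevertheless had a log2 fold change of 1.97 ± 0.32 (adjusted p = 0.000682). *Cenpk* overlaps *Ppwd1* on the opposite strand, which had up to 1369 counts. The RPKM of *Cenpk* also rests on a length of 5231 bases, with all exons merged. For both reasons the low level of *Cenpk* is uncertain.

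All 10 genes of the spindle, its motors and the chromosome arms were higher in CCL21-RANK+ TECs compared with CCL21+RANK- TECs, with log2 fold changes in the range of 1.34 ± 0.19 (*Kifc1*) to 1.98 ± 0.18 (*Top2a*). *Top2a*, the topoisomerase that untangles sister chromatids (chromosome 11, 98992943 to 99024189, minus strand), was at 7.72, 8.27, and 10.8 RPKM in CCL21+RANK-, 30.2, 45.7, and 37.9 RPKM in CCL21-RANK+, and 21.5 and 26.1 RPKM in CCL21-RANK- TECs. *Tpx2*, which activates Aurora A on spindle microtubules (chromosome 2, 152847964 to 152895321, plus strand), was at 5.95, 7.54, and 7.66 RPKM in CCL21+RANK-, 18.1, 24.3, and 23.1 RPKM in CCL21-RANK+, and 14.0 and 18.7 RPKM in CCL21-RANK- TECs. *Kifc1*, a minus-end motor that focuses spindle poles, was at 4.47, 4.93, and 6.33 RPKM in CCL21+RANK-, 10.9, 14.7, and 17.1 RPKM in CCL21-RANK+, and 8.73 and 11.1 RPKM in CCL21-RANK- TECs. The CCL21-RANK+ libraries lay above those of CCL21-RANK- for *Top2a*, and the groups overlapped for *Tpx2* and *Kifc1*.

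*Kif11* (Eg5), the motor that drives spindle poles apart (chromosome 19, 37376403 to 37421859, plus strand), was at 2.14, 2.47, and 2.91 RPKM in CCL21+RANK-, 6.02, 10.5, and 9.502 RPKM in CCL21-RANK+, and 6.25 and 6.80 RPKM in CCL21-RANK- TECs. *Kif15*, which can share that work, was at 0.645, 0.738, and 0.739 RPKM in CCL21+RANK-, 1.92, 2.88, and 2.199 RPKM in CCL21-RANK+, and 1.85 and 2.09 RPKM in CCL21-RANK- TECs. In both, replicate 1 of CCL21-RANK+ stood within or below the CCL21-RANK- libraries while replicates 2 and 3 were above them, and CCL21+RANK- libraries were lowest. *Kif18a*, which damps chromosome movements at kinetochores, was at 0.259, 0.334, and 0.424 RPKM in CCL21+RANK-, 0.714, 1.46, and 1.21 RPKM in CCL21-RANK+, and 0.858 and 0.645 RPKM in CCL21-RANK- TECs. *Kif18b*, which trims astral microtubules, was at 2.12, 2.64, and 3.45 RPKM in CCL21+RANK-, 6.36, 10.5, and 9.78 RPKM in CCL21-RANK+, and 5.96 and 6.63 RPKM in CCL21-RANK- TECs. *Kif2c* (MCAK), which dismantles faulty attachments, was at 1.71, 2.01, and 2.40 RPKM in CCL21+RANK-, 5.73, 8.48, and 7.95 RPKM in CCL21-RANK+, and 4.40 and 6.10 RPKM in CCL21-RANK- TECs. Across these depolymerizing or length-setting kinesins the CCL21+RANK- libraries were below every other library, and *Kif18a*, overlapped on the opposite strand by *Mettl15* with up to 399 counts, was the least abundant.

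*Kif22* (Kid), a chromokinesin that pushes chromosome arms outward, was at 1.71, 1.72, and 2.72 RPKM in CCL21+RANK-, 6.34, 8.71, and 8.17 RPKM in CCL21-RANK+, and 4.72 and 6.76 RPKM in CCL21-RANK- TECs. *Kif4*, a chromokinesin of chromosome arms and the central spindle, was at 2.53, 2.99, and 2.40 RPKM in CCL21+RANK-, 8.12, 10.2, and 9.11 RPKM in CCL21-RANK+, and 5.04 and 6.60 RPKM in CCL21-RANK- TECs. For *Kif4* all 3 CCL21-RANK+ libraries exceeded both CCL21-RANK- libraries, which they did not for *Kif22*. *Kif4* is overlapped by *Pdzd11* on the opposite strand, with up to 1900 counts.

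The central spindle and cytokinesis genes had 7 of 8 members called higher, with a median log2 fold change of 1.62. *Prc1*, which bundles antiparallel microtubules in the midzone (chromosome 7, 80294450 to 80316259, plus strand), was at 2.14, 2.40, and 3.22 RPKM in CCL21+RANK-, 6.07, 9.30, and 8.59 RPKM in CCL21-RANK+, and 5.31 and 7.07 RPKM in CCL21-RANK- TECs. *Kif20a* (MKLP2), which brings the passenger complex there, was at 4.35, 5.38, and 4.89 RPKM in CCL21+RANK-, 11.69, 17.2, and 17.2 RPKM in CCL21-RANK+, and 10.03 and 13.4 RPKM in CCL21-RANK- TECs. *Kif20b*, a late-mitotic kinesin of the midbody, was at 1.54, 1.23, and 0.965 RPKM in CCL21+RANK-, 3.56, 5.11, and 4.50 RPKM in CCL21-RANK+, and 1.89 and 2.40 RPKM in CCL21-RANK- TECs. All were lowest in CCL21+RANK- libraries, and for *Kif20b* the CCL21-RANK- libraries were also below all of CCL21-RANK+. Opposite-strand neighbors overlap *Prc1* (*Rccd1*, up to 1139 counts) and *Kif20a* (*Cdc23*, up to 6138 counts).

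*Ect2*, the exchange factor that switches on RhoA at the equator (chromosome 3, 27097222 to 27153878, minus strand), was at 1.91, 1.89, and 2.67 RPKM in CCL21+RANK-, 6.40, 10.9, and 10.4 RPKM in CCL21-RANK+, and 5.06 and 5.24 RPKM in CCL21-RANK- TECs. *Anln* (anillin), a scaffold of the contractile ring, was at 1.94, 2.08, and 2.40 RPKM in CCL21+RANK-, 6.62, 10.6, and 8.74 RPKM in CCL21-RANK+, and 5.48 and 5.95 RPKM in CCL21-RANK- TECs. *Kif14*, which recruits citron kinase, was at 0.592, 0.867, and 0.786 RPKM in CCL21+RANK-, 1.86, 3.53, and 2.86 RPKM in CCL21-RANK+, and 1.56 and 1.80 RPKM in CCL21-RANK- TECs. All 3 groups were apart for *Ect2*, *Anln*, and *Kif14*, with CCL21-RANK+ highest and log2 fold changes against CCL21+RANK- of 2.00 ± 0.22, 1.91 ± 0.19, and 1.77 ± 0.27.

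Centralspindlin, the complex that binds *Ect2*, is built from the kinesin *Kif23* (MKLP1) and the GTPase-activating protein *Racgap1*. *Kif23* (chromosome 9, 61915905 to 61946774, minus strand) was at 1.46, 1.43, and 1.63 RPKM in CCL21+RANK-, 3.33, 4.92, and 4.63 RPKM in CCL21-RANK+, and 3.12 and 3.54 RPKM in CCL21-RANK- TECs. *Racgap1* (chromosome 15, 99620496 to 99651656, minus strand) was at 11.1, 13.1, and 14.3 RPKM in CCL21+RANK-, 11.6, 16.0, and 15.4 RPKM in CCL21-RANK+, and 26.9 and 31.6 RPKM in CCL21-RANK- TECs. *Kif23* was higher in CCL21-RANK+ TECs compared with CCL21+RANK- TECs (log2 fold change 1.40 ± 0.17, adjusted p = 0.000106), whereas the libraries of *Racgap1* overlapped (log2 fold change 0.04 ± 0.16, adjusted p = 0.841, and -0.05 without replicate 1 of CCL21+RANK- or -0.07 without replicate 2 of CCL21-RANK+). The ratio of *Racgap1* to *Kif23* RPKM was 7.62, 9.20, and 8.81 for CCL21+RANK-, 3.49, 3.24, and 3.32 for CCL21-RANK+, and 8.62 and 8.93 for CCL21-RANK- TECs. The CCL21-RANK+ libraries were below all others (exact permutation test, two-sided, p = 0.1 against CCL21+RANK- and p = 0.2 against CCL21-RANK-, the smallest these designs allow), and the other groups overlapped (exact permutation p = 1.0). *Racgap1* made up 9.13% to 10.2% of the summed member RPKM for CCL21+RANK-, 3.33% to 3.68% for CCL21-RANK+, and 8.74% to 9.35% for CCL21-RANK- TECs.

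**Figure D2:**
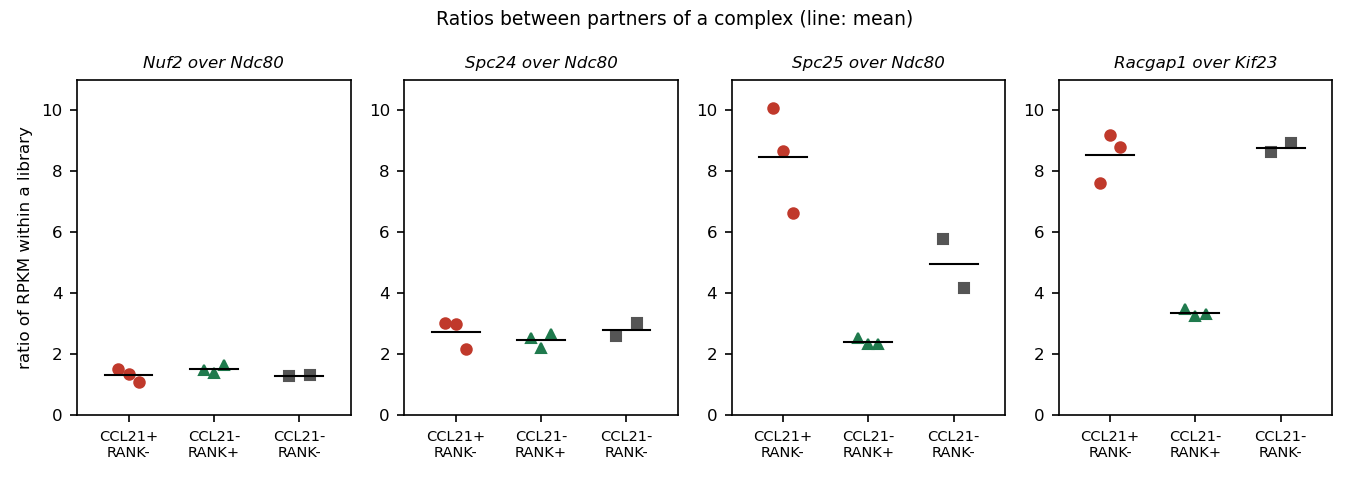
Ratio of RPKM between partners of the NDC80 complex (*Nuf2*, *Spc24*, and *Spc25* over *Ndc80*) and of centralspindlin (*Racgap1* over *Kif23*) within each library, with 1 point a library and a line at the group mean. The ratios of *Spc25* and *Racgap1* are lowest in all 3 CCL21-RANK+ libraries (2.33 to 2.52 and 3.24 to 3.49), while those of *Nuf2* and *Spc24* overlap between CCL21+RANK- and CCL21-RANK+ TECs.

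*Racgap1* over *Ect2* RPKM was 5.82, 6.94, and 5.36 for CCL21+RANK-, 1.82, 1.47, and 1.47 for CCL21-RANK+, and 5.32 and 6.03 for CCL21-RANK- TECs, lowest in all CCL21-RANK+ libraries. Each ratio restates the levels of its 2 genes given above and adds no separate evidence. *Aurka* was also set against *Aurkb* and *Tpx2*, and *Aurkb* against *Incenp*. *Aurka* over *Aurkb* RPKM was 0.541, 0.672, and 0.691 for CCL21+RANK-, 1.04, 0.838, and 0.855 for CCL21-RANK+, and 0.600 and 0.774 for CCL21-RANK- TECs, with every CCL21-RANK+ library highest (exact permutation p = 0.1 and p = 0.2, again the smallest possible). *Aurka* over its activator *Tpx2* was 0.349, 0.310, and 0.463 for CCL21+RANK-, 0.577, 0.712, and 0.603 for CCL21-RANK+, and 0.462 and 0.466 for CCL21-RANK- TECs, highest in CCL21-RANK+ (exact permutation p = 0.1 and p = 0.2). *Aurkb* over *Incenp* was 0.634, 0.541, and 0.738 for CCL21+RANK-, 0.736, 1.26, and 0.997 for CCL21-RANK+, and 1.31 and 0.954 for CCL21-RANK- TECs. In this ratio the CCL21-RANK+ libraries overlapped both other groups (exact permutation p = 0.2 and p = 0.8), and the highest mean was that of CCL21-RANK- TECs. These 8 ratios between genes were tested in 3 comparisons each, and because no p-value of these designs can be under 0.1 none would pass an adjustment.

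Between CCL21+RANK- and CCL21-RANK- TECs, a comparison that uses the same CCL21+RANK- libraries as the one above, 33 members were lower and 0 higher in CCL21+RANK- TECs in edgeR, against 3.66% and 4.35% of tested genes. No member had a log2 fold change above 0 (0 higher at an unadjusted p-value under 0.05), and DESeq2 called 35 lower and 0 higher. For 40 members, all except *Cenpe*, every CCL21+RANK- library was below both CCL21-RANK- libraries, which held for 20.5% of tested genes. The median log2 fold change was -1.25 (from -1.85 for *Cenpa* to -0.51 for *Spc25*), beside 0.00 for all tested genes. All 4 parathyroid markers (median log2 fold change 6.98) and 1 of 14 thymocyte markers were called higher in CCL21+RANK- TECs in this comparison. Their part in the mitotic levels was not tested. The number of members called lower was 23 without replicate 1 and 15 without replicate 2 of CCL21-RANK- TECs, where the lone remaining library is assumed to vary like the other groups.

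Among the genes called were *Birc5* (log2 fold change -1.68 ± 0.21, adjusted p = 0.00115), *Bub1* (-1.72 ± 0.22, adjusted p = 0.00132), *Cdc20* (-1.68 ± 0.27, adjusted p = 0.00438), and *Top2a* (-1.41 ± 0.20, adjusted p = 0.00198). *Racgap1* was lower as well (-1.18 ± 0.17, adjusted p = 0.00266), unlike in the comparison of CCL21-RANK+ with CCL21+RANK- TECs. The 8 members not called were 4 of the centromere network (*Cenpm*, *Cenph*, *Cenpk*, and *Cenpi*), *Spc25*, *Cenpe*, *Kif18a*, and *Kif20b*, with log2 fold changes from -1.17 ± 0.35 to -0.51 ± 0.18 and adjusted p-values from 0.0508 to 0.264. By role, 6 of 6 kinase and passenger genes, 5 of 5 checkpoint genes, 4 of 6 outer kinetochore genes, 2 of 6 centromere genes, 9 of 10 spindle and motor genes, and 7 of 8 cytokinesis genes were lower.

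**Figure D3:**
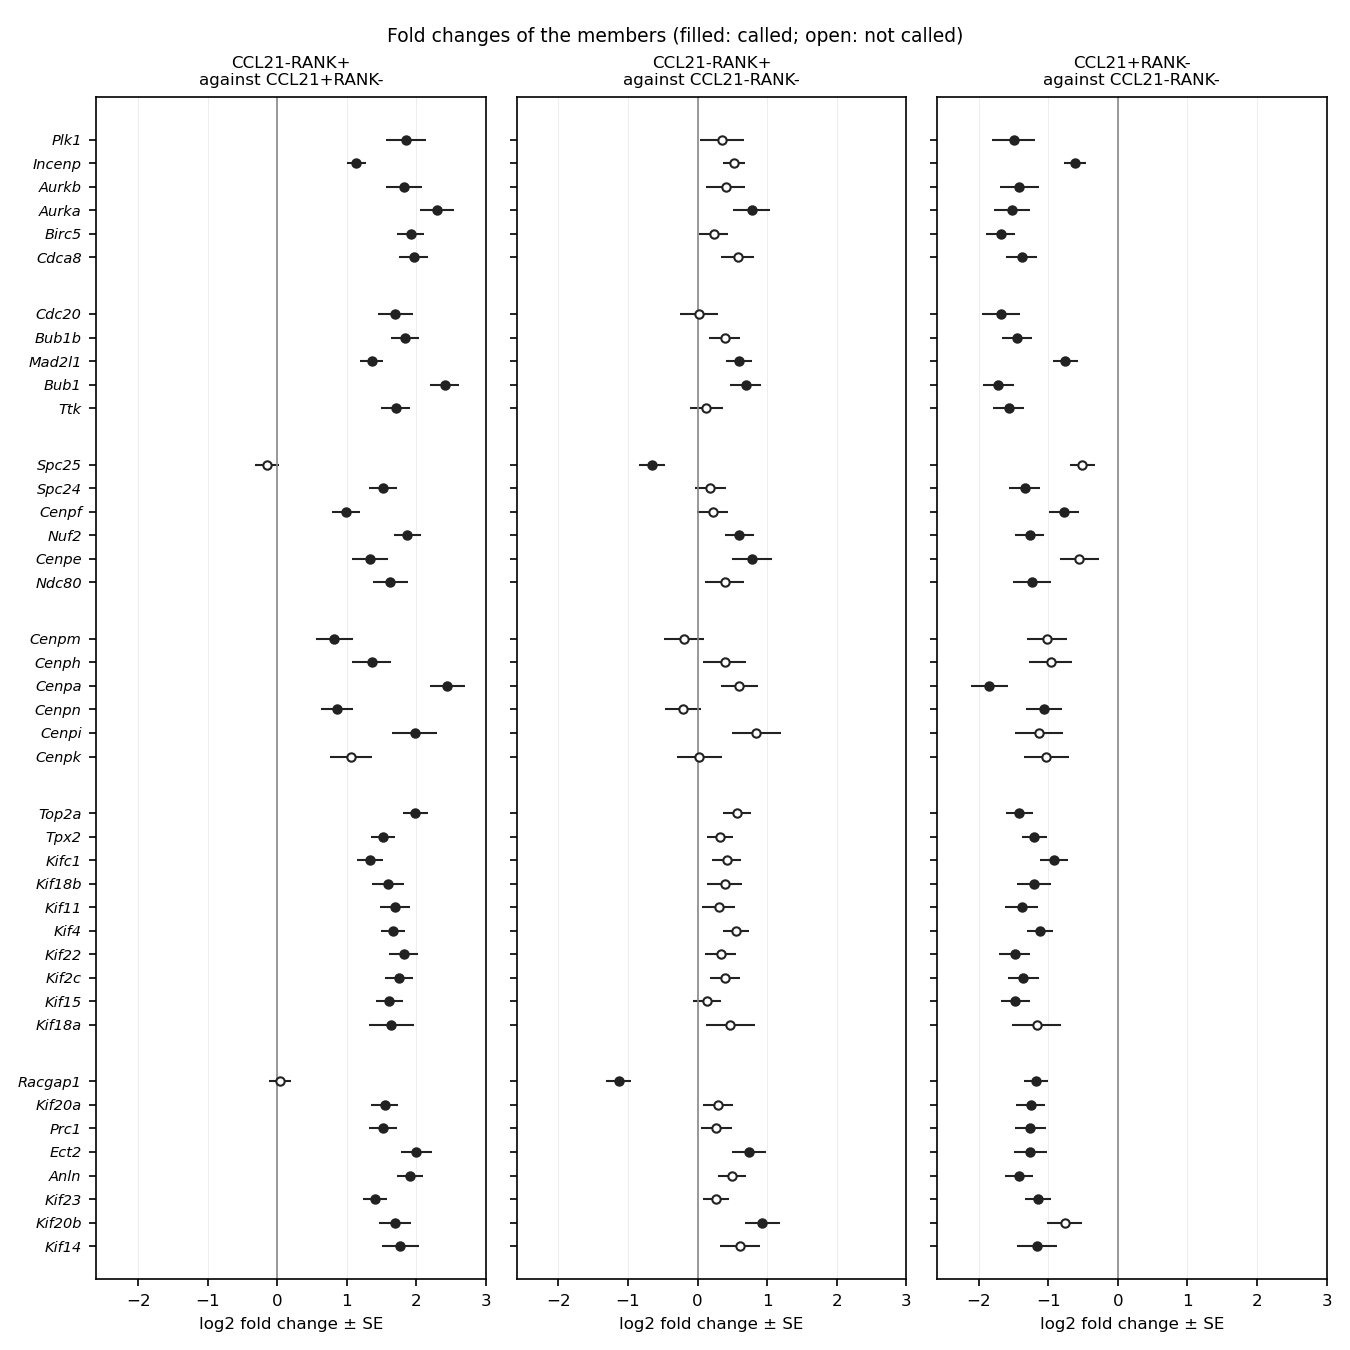
Log2 fold change ± SE of the 41 members in the 3 comparisons of the edgeR fit, with filled points for genes called and open points for genes not called. The points lie above 0 for 40 members in CCL21-RANK+ against CCL21+RANK- (38 filled) and below 0 for all 41 in CCL21+RANK- against CCL21-RANK- (33 filled), while 40 lie within 1 of 0 in CCL21-RANK+ against CCL21-RANK- TECs (9 filled).

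CCL21-RANK+ and CCL21-RANK- TECs, which share libraries with both comparisons above, differed less. In edgeR 7 members were higher in CCL21-RANK+ TECs (*Kif20b*, *Ect2*, *Aurka*, *Nuf2*, *Cenpe*, *Bub1*, and *Mad2l1*), against 14.4% of tested genes, and 2 were lower (*Racgap1* and *Spc25*), against 15.1%. The share called higher, 17.1% of the 41, was near the background. Every CCL21-RANK+ library was above both CCL21-RANK- libraries for 15 members, against 38.8% of tested genes, and below both for 2, against 26.9%. The median log2 fold change was 0.39, beside 0.06 for all tested genes. *Kif20b* had the largest log2 fold change (0.93 ± 0.25, adjusted p = 0.0134), followed among those called by *Cenpe* (0.78 ± 0.29, adjusted p = 0.0482), *Aurka* (0.78 ± 0.27, adjusted p = 0.035), and *Ect2* (0.74 ± 0.24, adjusted p = 0.0306). *Racgap1* was lower at -1.14 ± 0.17 (adjusted p = 0.000522) and *Spc25* at -0.66 ± 0.18 (adjusted p = 0.0146). A further 3 members, *Incenp*, *Kif4*, and *Top2a*, passed the adjusted p-value but not the 1.5-fold threshold.

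The number of members higher in CCL21-RANK+ TECs compared with CCL21-RANK- TECs rested on single libraries. It was 20 without replicate 1, 1 without replicate 2, and 3 without replicate 3 of CCL21-RANK+ TECs, and 0 without replicate 1 and 2 without replicate 2 of CCL21-RANK- TECs. It also rested on scaling, with 14 higher and 1 lower under the size factors of DESeq2, which moved the median of all tested genes from 0.06 to 0.20, and 13 higher and 1 lower with library totals. *Racgap1* remained lower under each of these settings, and *Spc25* (-0.52 under the size factors of DESeq2) did not reach the 1.5-fold threshold there, nor without replicate 1 of CCL21-RANK+ (-0.50), and missed the adjusted p-value without replicate 1 of CCL21-RANK- TECs (adjusted p = 0.128).

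Libraries of a group deviated together across the members. Replicate 1 of CCL21-RANK+ was lowest in its group for 39 of 41 members and replicate 2 was highest for 35. Replicate 1 of CCL21-RANK- was the lower of its pair for 37. Replicate 1 of CCL21+RANK- was lowest for 25 and replicate 3 highest for 30. In every group replicate 1 was thus the library most often lowest, and the labels do not say whether same-numbered libraries shared embryos or a sort. The median coefficient of variation of member RPKM was 16.5% for CCL21+RANK-, 21.2% for CCL21-RANK+, and 16.5% for CCL21-RANK- TECs. Replicate 1 of CCL21-RANK+ also had the highest sums of myeloid and mesenchymal markers given above, and the part of either in its lower mitotic levels was not tested. The noncoding gene *Gm26917* took 6.89% of the counts of replicate 2 and 17.3% of replicate 1 of CCL21-RANK- TECs, which enters the library totals behind RPKM.

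**Figure D4:**
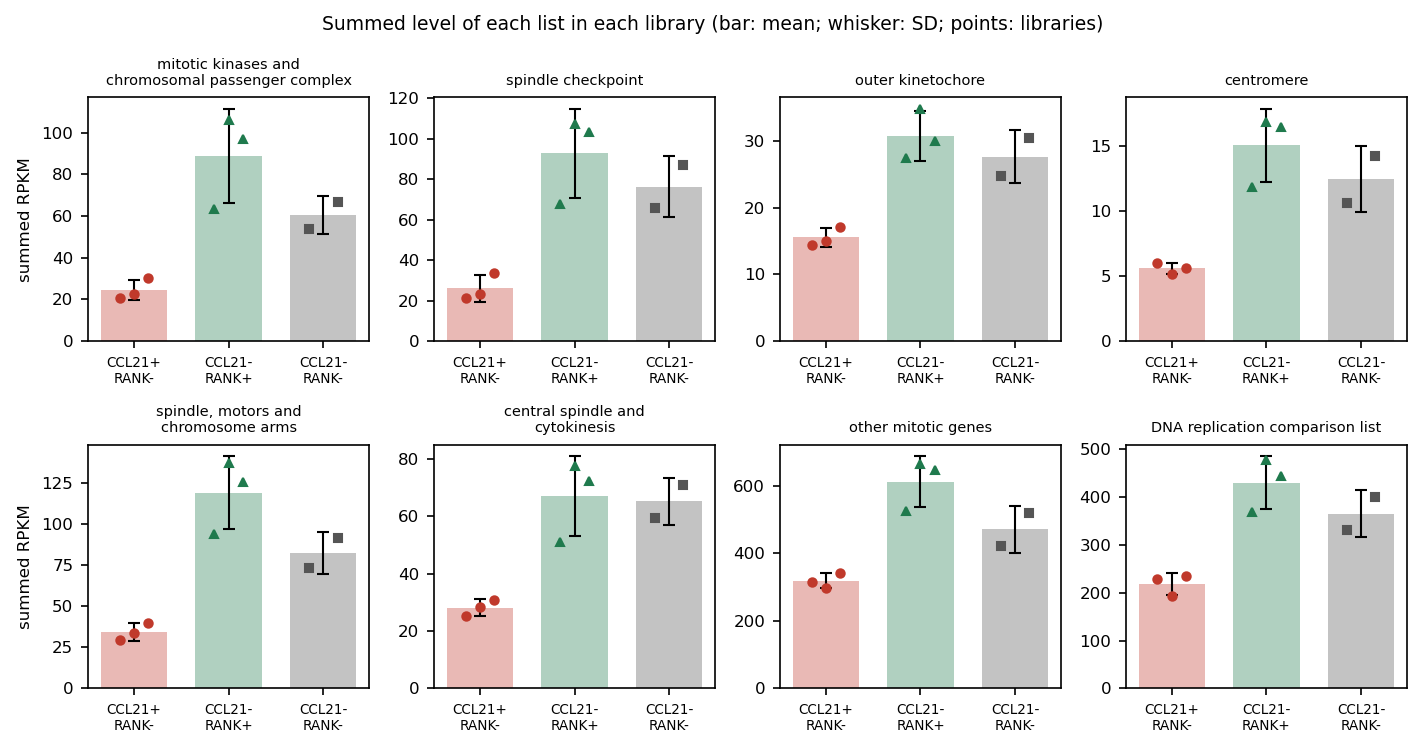
Summed RPKM in each library for the 6 roles of the members and for 2 further lists, with bars at the group mean, whiskers of 1 SD, and 1 point a library. CCL21+RANK- libraries are lowest in every panel, and the central spindle and cytokinesis sum, which holds *Racgap1*, has nearly the same mean in CCL21-RANK+ (66.97) and CCL21-RANK- (65.2) TECs.

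By role, the fold of mean summed RPKM between CCL21-RANK+ and CCL21+RANK- TECs ran from 1.98 for the outer kinetochore, which holds *Spc25*, through 2.38 for cytokinesis, which holds *Racgap1*, and 2.68 for the centromere, to 3.48 for spindle and motors, 3.57 for the checkpoint, and 3.63 for kinases and the passenger complex. Between CCL21-RANK+ and CCL21-RANK- TECs it ran from 1.03 for cytokinesis to 1.47 for kinases and the passenger complex.

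A list of 69 other mitotic genes holds further kinetochore, condensin and cyclin genes. In CCL21-RANK+ against CCL21+RANK- TECs, 52 of them were higher (75.4%) and 2 lower (2.9%), beside 15.4% and 15.4% of all tested genes. Their median log2 fold change was 1.44. The genes lower were *Numa1*, a spindle-pole protein that also serves in the interphase nucleus (-1.15 ± 0.23), and *Pttg1* (securin, -0.75 ± 0.13). *Numa1* was at 47.0, 39.3, and 41.9 RPKM in CCL21+RANK-, 24.7, 16.3, and 22.3 RPKM in CCL21-RANK+, and 18.8 and 40.9 RPKM in CCL21-RANK- TECs. *Cdk1*, the kinase that drives entry into mitosis, was at 1.60, 2.02, and 1.92 RPKM in CCL21+RANK-, 7.81, 12.7, and 11.4 RPKM in CCL21-RANK+, and 4.92 and 6.53 RPKM in CCL21-RANK- TECs. *Aspm*, a spindle-pole protein, was at 1.89, 2.33, and 3.51 RPKM in CCL21+RANK-, 10.9, 17.7, and 16.3 RPKM in CCL21-RANK+, and 4.55 and 4.73 RPKM in CCL21-RANK- TECs. CCL21-RANK+ libraries were highest for *Cdk1* and *Aspm*, which were higher than in CCL21+RANK- (log2 fold changes 2.41 ± 0.22 and 2.45 ± 0.24) and CCL21-RANK- TECs (0.79 ± 0.24 and 1.58 ± 0.27). The abundant centromere DNA-binding gene *Cenpb*, at 38.6, 31.7, and 37.95 RPKM in CCL21+RANK-, 45.4, 42.0, and 41.5 RPKM in CCL21-RANK+, and 29.8 and 37.4 RPKM in CCL21-RANK- TECs, had a log2 fold change of 0.13 ± 0.10 that did not pass the test. In CCL21+RANK- against CCL21-RANK- TECs 38 of the 69 were lower (55.1%) and 0 higher (0 at an unadjusted p under 0.05, and 0 in DESeq2), beside 3.66% and 4.35% of all tested genes. In CCL21-RANK+ against CCL21-RANK- TECs 12 were higher (17.4%) and 3 lower (4.35%), beside 14.4% and 15.1% of all tested genes.

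DNA replication genes, which serve S phase, gave smaller values. Of 40, 26 were higher (65.0%) and 0 lower in CCL21-RANK+ TECs compared with CCL21+RANK- TECs in edgeR (0 lower at an unadjusted p under 0.05, and 0 in DESeq2). Of all tested genes, 15.4% were higher and 15.4% lower. The median log2 fold change of the list was 0.80. *Pcna*, the sliding clamp, was at 28.2, 21.5, and 27.6 RPKM in CCL21+RANK-, 45.3, 56.0, and 52.1 RPKM in CCL21-RANK+, and 38.5 and 46.7 RPKM in CCL21-RANK- TECs. *Rrm2*, a subunit of ribonucleotide reductase, was at 7.81, 5.00, and 6.47 RPKM in CCL21+RANK-, 22.8, 30.9, and 29.99 RPKM in CCL21-RANK+, and 10.1 and 13.5 RPKM in CCL21-RANK- TECs. *Rrm2* had the larger log2 fold change (2.01 ± 0.19, beside 0.88 ± 0.13 for *Pcna*, 0.98 ± 0.13 for *Pold1*, and 1.68 ± 0.17 for *Mcm10*). In CCL21+RANK- against CCL21-RANK- TECs 25 of 40 were lower (62.5%), beside 3.66% of all tested genes. In CCL21-RANK+ against CCL21-RANK- TECs 2 were higher (5.0%) and 4 lower (10%), beside 14.4% and 15.1% of all tested genes. The summed RPKM of the 41 mitotic genes over that of the 40 replication genes was 0.510, 0.666, and 0.668 for CCL21+RANK-, 0.856, 1.01, and 1.00 for CCL21-RANK+, and 0.870 and 0.901 for CCL21-RANK- TECs, lowest in all 3 CCL21+RANK- libraries.

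Transcriptional regulators of mitotic genes gave mixed values. The DREAM complex represses mitotic genes in resting cells through the CHR, and MYBL2 and FOXM1 activate them later in the cycle. Of 21 regulators, 7 were higher and 1 lower in CCL21-RANK+ TECs compared with CCL21+RANK- TECs, with a median log2 fold change of 0.20. These shares were 33.3% and 4.76%, beside 15.4% and 15.4% of all tested genes. *Mybl2* (B-MYB) was at 1.56, 0.967, and 1.32 RPKM in CCL21+RANK-, 4.79, 5.81, and 6.42 RPKM in CCL21-RANK+, and 1.79 and 2.51 RPKM in CCL21-RANK- TECs. *Foxm1*, the forkhead activator of G2 and M genes, was at 5.98, 7.06, and 7.70 RPKM in CCL21+RANK-, 5.28, 7.61, and 6.496 RPKM in CCL21-RANK+, and 8.35 and 9.58 RPKM in CCL21-RANK- TECs. *Mybl2* was higher in CCL21-RANK+ TECs compared with CCL21+RANK- (2.04 ± 0.21, adjusted p = 3.09e-05) and CCL21-RANK- TECs (1.29 ± 0.23, adjusted p = 0.00137), whereas the libraries of *Foxm1* overlapped in the first of these (log2 fold change -0.21 ± 0.16, adjusted p = 0.32). In the second, every CCL21-RANK+ library of *Foxm1* lay below both CCL21-RANK- libraries (-0.58 ± 0.18, adjusted p = 0.0246), short of the 1.5-fold threshold. *E2f2*, an activating E2F, was at 1.21, 1.23, and 1.48 RPKM in CCL21+RANK-, 9.10, 6.56, and 9.01 RPKM in CCL21-RANK+, and 1.49 and 1.47 RPKM in CCL21-RANK- TECs, with the largest log2 fold change of the list (2.53 ± 0.15). *Tfdp1*, the common partner of E2F proteins, was at 36.6, 32.2, and 30.3 RPKM in CCL21+RANK-, 63.3, 59.9, and 55.4 RPKM in CCL21-RANK+, and 24.4 and 26.5 RPKM in CCL21-RANK- TECs. The related *Tfdp2* was at 6.71, 6.15, and 6.68 RPKM in CCL21+RANK-, 2.21, 2.67, and 2.46 RPKM in CCL21-RANK+, and 5.87 and 6.39 RPKM in CCL21-RANK- TECs. The partner genes differed in direction, with *Tfdp1* higher (0.72 ± 0.11) and *Tfdp2* lower (-1.53 ± 0.12, adjusted p = 5.02e-06) in CCL21-RANK+ TECs compared with CCL21+RANK- TECs. The histone-binding subunit *Rbbp4* was at 16.97, 16.0, and 20.4 RPKM in CCL21+RANK-, 18.8, 23.7, and 23.5 RPKM in CCL21-RANK+, and 22.2 and 24.5 RPKM in CCL21-RANK- TECs, and it was not called. In CCL21+RANK- against CCL21-RANK- TECs, 0 regulators were higher (1 at an unadjusted p under 0.05, and 0 in DESeq2) and 2 were lower, the repressors *E2f7* and *E2f8*. The 2 lower were 9.52% of the list, beside 3.66% of all tested genes, of which 4.35% were higher. In CCL21-RANK+ against CCL21-RANK- TECs 6 were higher (28.6%) and 1 lower (4.76%), beside 14.4% and 15.1% of all tested genes.

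**Figure D5:**
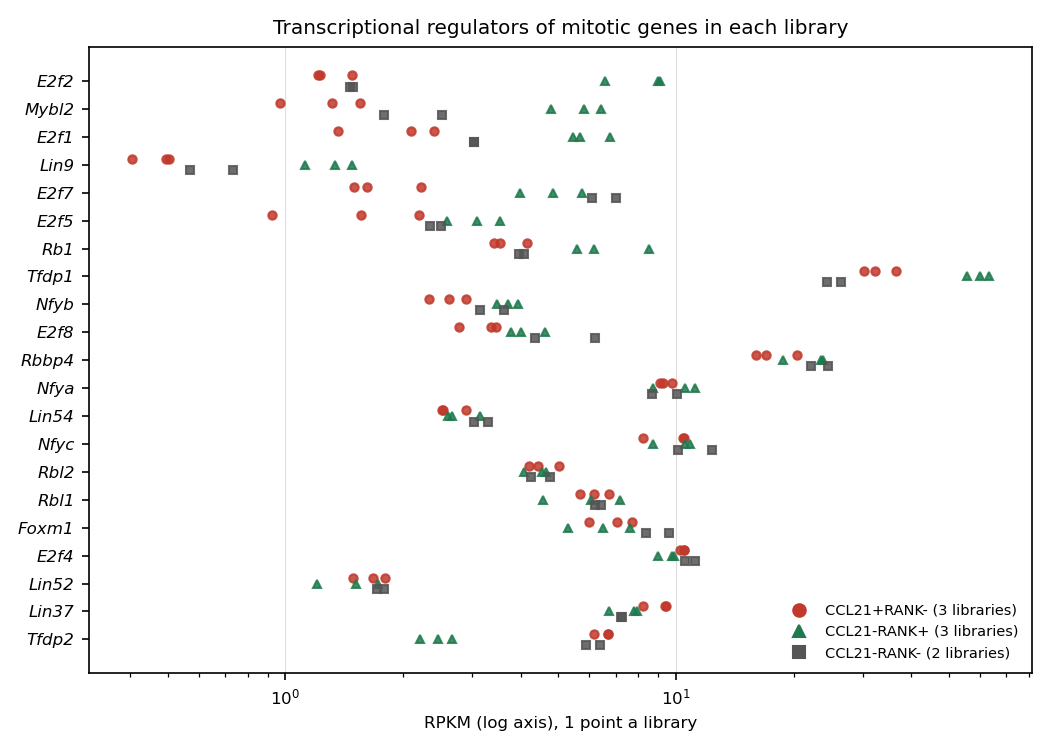
RPKM (log axis) of 21 transcriptional regulators of mitotic genes in each library, ordered by the log2 fold change between CCL21-RANK+ and CCL21+RANK- TECs, with 1 point a library. *E2f2* and *Mybl2* at the top have their 3 CCL21-RANK+ libraries above all others, *Foxm1* overlaps between CCL21-RANK+ and CCL21+RANK- and is highest in both CCL21-RANK- libraries, and *Tfdp2* at the bottom has its CCL21-RANK+ libraries (2.21 to 2.67 RPKM) below all others.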

How the data were processed

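The authors deposited expected counts per gene for 8 libraries of sorted E17 TECs, estimated with RSEM, which divides a read among the genes it matches. The submitters' processing notes name bcl2fastq 2.20, Trimmomatic, STAR 2.5.1, RSEM 1.3.1, and the genome mm10, whereas the paper's methods name CLC Genomics Workbench for analysis. The labels name a directional NEBNext kit and the methods a TruSeq kit. Whether counting used strand is not given in the sources used here. Between 4.47% and 5.94% of values per library were not whole, and the counts were rounded. All 55450 identifiers matched GENCODE M21, whose merged exon lengths gave RPKM from library totals.

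The counts were tested in edgeR 4.0.16 (R 4.3.3) with TMM scaling and its default filter on low counts, by the quasi-likelihood test in a single model of 3 group means, with Benjamini-Hochberg adjustment over 21451 genes. The thresholds are those of the study. The design gave all 41 members by role, with values in every library for the most abundant, the most and least changed, and those not called or called in CCL21+RANK- against CCL21-RANK- TECs, and the others are added. Of other lists, the genes named are the 2 of highest mean RPKM and the 2 of largest fold change, and further ones (*Foxm1*, *Pttg1*, *Tfdp2*, *E2f7*, *E2f8*, *Wapl*, *Dctn1*, *Kif1b*, *Kif3b*, and single markers) were named after their values were seen. Members and lists were chosen with earlier results of these data known. The fit was tested on simulated data, and the outcome is not given here. Alternatives were DESeq2 1.42.0 (Wald test and size factors), library totals, 2 other filters, the compared groups alone, other thresholds, a replicate block, removal of the abundant *Gm26917* and *Gm42418*, and leaving out libraries. Promoters are from RefSeq (GRCm38.p6). For 32 of 40 listed member promoters, a short stretch after the start was found in the first part of a GENCODE transcript of the gene. This checks the orientation and does not show that the starts are the same. Replicate libraries differed by more than counting noise. Exact permutation tests used scipy 1.17.1, and figures matplotlib 3.10.9. Reads are not independent molecules, so that precision from depth covers counting error only.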

Additional observations from a re-analysis of the deposited data

How the results depend on the processing

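The counts of members higher in CCL21-RANK+ TECs compared with CCL21+RANK- TECs (38, and 36 to 38 when each library was left out in turn) and the medians of the members in all 3 comparisons kept their direction under every alternative run. In CCL21+RANK- against CCL21-RANK- TECs 33 members were lower, and 15 to 36 when each library was left out. In CCL21-RANK+ against CCL21-RANK- TECs, where 7 were higher and 2 lower, the counts moved most. The number higher was 15 with the Wald test of DESeq2, 14 with its size factors, 18 with at least 10 counts in every library, 13 with library totals only, 12 without an expression filter, 0 with a fold change over 2, 21 without the first library of CCL21+RANK- and of CCL21-RANK+ together (chosen after seeing the data), and 0 to 20 when each library was left out. The number lower was 1 with that Wald test, those size factors, at least 10 counts, library totals, a fold change over 2, or without both first libraries, and 1 to 2 when each library was left out. The cause was not tested, and the lone CCL21-RANK- library left is assumed to vary like the other groups. The median of all tested genes in this comparison and in CCL21-RANK+ against CCL21+RANK- TECs, 0.06 and 0.11, was 0.20 and 0.20 with DESeq2 size factors, 0.18 and 0.23 with library totals, 0.47 and 0.44 with the Wald test, 0.38 and 0.40 without a filter, and 0.04 and 0.02 with at least 10 counts in every library. Over all genes, an adjusted p-value alone called 6558 genes higher in CCL21-RANK+ against CCL21+RANK- TECs (3306 with all thresholds) and 5793 in CCL21-RANK+ against CCL21-RANK- TECs (3088). A fold change over 2 left 2090 lower in the former (3311), 1914 lower in the latter (3244), and 610 and 420 higher and lower in CCL21+RANK- against CCL21-RANK- TECs (934 and 786). Without 1 of the CCL21-RANK- libraries, 410 to 445 genes were higher and 247 to 327 lower in the last comparison.

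In a fit blocked on the replicate number, 4 members were higher in CCL21-RANK+ TECs compared with CCL21-RANK- TECs, and the log2 fold changes of *Cdc20* (-0.16) and *Cenpk* (-0.0572) turned. The block changed no other count by over 1.5 times. Same-numbered libraries deviated from their group means with correlations of -0.124 to 0.127 across genes. The deviations of the 2 CCL21-RANK- libraries mirror each other, so that their correlations cannot show a pairing. Between CCL21+RANK- and CCL21-RANK+ libraries the correlations were 0.127, 0.029, and 0.076 for replicates 1, 2, and 3. Those of different numbers ran from -0.120 to 0.060. Whether the numbers pair the libraries was left unsettled, and the main fit used no block. Other fold changes near 0 turned too. In CCL21-RANK+ against CCL21-RANK- TECs, *Cenpm* was 0.0035 with at least 10 counts in every library and *Cenpn* 0.0033 without both first libraries. When each library was left out, the ranges were -0.16 to 0.26 for *Cdc20*, -0.13 to 0.26 for *Cenpk*, -0.077 to 0.30 for *Kif15*, -0.032 to 0.42 for *Spc24*, and -0.41 to 0.052 for *Cenpm* in that comparison, and -0.073 to 0.21 for *Racgap1* and -0.33 to 0.0052 for *Spc25* in CCL21-RANK+ against CCL21+RANK- TECs. The lowest count of a member was 86, so that the spread between libraries (common biological coefficient of variation 0.326 in edgeR) limits the tests more than counting error.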

Other observations

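Spindle and microtubule genes that cells also use outside mitosis gave mixed values. Of 22, 7 were higher and 3 lower in CCL21-RANK+ TECs compared with CCL21+RANK- TECs, with a median log2 fold change of 0.24. These shares were 31.8% and 13.6%, beside 15.4% and 15.4% of all tested genes. Tubulins were among the higher genes, although tubulin genes are near-identical in sequence and RSEM divides shared reads among them, so that their single levels are uncertain. *Tuba1b*, an alpha-tubulin and the most abundant of the list, was at 207, 177, and 255 RPKM in CCL21+RANK-, 285, 444, and 404 RPKM in CCL21-RANK+, and 308 and 370.1 RPKM in CCL21-RANK- TECs. *Tuba1a*, an alpha-tubulin common in neurons, was at 107, 74.5, and 86.6 RPKM in CCL21+RANK-, 234, 304, and 328 RPKM in CCL21-RANK+, and 35.5 and 43.6 RPKM in CCL21-RANK- TECs. *Tubb5*, a beta-tubulin, was at 105, 100.1, and 139.7 RPKM in CCL21+RANK-, 185, 324, and 309.7 RPKM in CCL21-RANK+, and 183 and 194 RPKM in CCL21-RANK- TECs. *Tuba1a* differed among all groups, with log2 fold changes of 1.58 ± 0.18 against CCL21+RANK- and 2.76 ± 0.22 against CCL21-RANK- TECs, and it was 1 of the 3 genes of the list higher in the latter comparison, in which 3 were lower (13.6% and 13.6%, near the 14.4% and 15.1% of all tested genes). *Stmn1* (stathmin), which frees tubulin from microtubules, was at 33.5, 33.0, and 40.5 RPKM in CCL21+RANK-, 85.6, 109, and 112 RPKM in CCL21-RANK+, and 71.4 and 94.2 RPKM in CCL21-RANK- TECs, lowest in CCL21+RANK- TECs and lower there than in CCL21-RANK- TECs (-1.21 ± 0.16, adjusted p = 0.00147 in edgeR). In that comparison *Stmn1* was the 1 gene lower (4.55%) and *Tuba1a* the 1 gene higher (4.55%), near the 3.66% and 4.35% of all tested genes. The genes lower in CCL21-RANK+ TECs compared with CCL21+RANK- TECs were *Dctn1*, *Kif1b*, and *Kif3b*, which serve cargo transport and cilia.

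Cohesin holds sister chromatids together. Of 9 cohesin genes, 1 was higher and 1 lower in CCL21-RANK+ TECs compared with CCL21+RANK- TECs, with a median log2 fold change of -0.27. These shares were 11.1% and 11.1%, beside 15.4% and 15.4% of all tested genes. *Pds5b*, a regulator of cohesin on chromatin, was at 74.5, 65.2, and 82.5 RPKM in CCL21+RANK-, 8.95, 10.9, and 8.27 RPKM in CCL21-RANK+, and 68.8 and 70.1 RPKM in CCL21-RANK- TECs, and *Rad21*, the kleisin subunit of cohesin, was at 36.3, 27.0, and 33.6 RPKM in CCL21+RANK-, 61.2, 59.0, and 59.7 RPKM in CCL21-RANK+, and 33.9 and 42.5 RPKM in CCL21-RANK- TECs. *Pds5b* was lower in CCL21-RANK+ TECs compared with CCL21+RANK- (log2 fold change -3.09 ± 0.15, adjusted p = 5.61e-07 in edgeR) and CCL21-RANK- TECs (-3.00 ± 0.16), without overlap of libraries, and *Rad21* was higher than in CCL21+RANK- TECs (0.78 ± 0.11, adjusted p = 0.000271). In CCL21-RANK+ against CCL21-RANK- TECs 0 cohesin genes were higher (1 at an unadjusted p under 0.05, and 1 in DESeq2) and 2 were lower (*Pds5b* and *Wapl*), 22.2% beside 15.1% of all tested genes. In CCL21+RANK- against CCL21-RANK- TECs 0 differed in edgeR (0 at an unadjusted p under 0.05, and 0 in DESeq2), beside 4.35% higher and 3.66% lower of all tested genes.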
